A study of Homo sapiens with 31 samples.

Results

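NF-kB transcription depends on 5 subunit genes (NFKB1, NFKB2, RELA, RELB and REL), on the IkB kinase (IKK) genes IKBKG, IKBKB and CHUK, and on the feedback inhibitors NFKBIA and TNFAIP3. These 10 genes were chosen by symbol, and each was found once among the 30667 gene identifiers of a table of unique molecular identifier (UMI) counts from NALM-6 cells. NALM-6 is a B-cell precursor acute lymphoblastic leukemia (ALL) line. Cells were transduced with lentiviral vectors that expressed an shRNA against XIAP (sh-XIAP) or a control shRNA (sh-CTRL) under either the EF1a or the stronger SFFV promoter. The 4 constructs were EF1a/sh-CTRL, EF1a/sh-XIAP (moderate XIAP knockdown, KD), SFFV/sh-CTRL and SFFV/sh-XIAP (strong KD), and every group therefore carried a vector. Cells were sampled 4, 10 and 13 days after transduction. At day 4 there were 3 samples of each sh-CTRL construct and 2 of each sh-XIAP construct. Days 10 and 13 together had 6 samples of EF1a/sh-CTRL, 5 of EF1a/sh-XIAP, 4 of SFFV/sh-CTRL and 6 of SFFV/sh-XIAP. All 31 samples came from 1 cell line and 1 shRNA sequence against XIAP. Each sample is labelled as followed in culture, although the general description speaks of cells recovered from mouse marrow; the labels of the samples were used.

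NF-kB proteins bind DNA as dimers of the 5 subunits, and in resting cells IkB proteins such as the product of NFKBIA hold the dimers in the cytoplasm. The IKK complex, made of the kinases encoded by IKBKB and CHUK and the scaffold encoded by IKBKG, marks IkB for destruction and so releases the dimers to the nucleus. NFKBIA and TNFAIP3 are themselves classical NF-kB targets, and their proteins shut the signal down again. XIAP is best known as an inhibitor of caspases, and as a ubiquitin ligase it is also known to pass signals on towards IKK. In B-lineage cells NF-kB is a survival factor.

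Several NF-kB genes are known to be targets of NF-kB themselves, so short stretches near their starts that hold its motif are given here. The 10-base kB consensus motif was searched on both strands from 250 bases before to 50 bases after each RefSeq gene start (GRCh38.p14). Of the 10 genes, 8 matched the table of start regions, and RELB and IKBKB, which did not, were not searched. Of the 8 genes, 5 (62.5%) held a match in at least 1 window, against 13.3% of all 27305 genes with a window. A gene can have several windows. Counted by window, 6 of the 15 of these genes (40%) held a match, against 11.3% of all 35116. In the following stretches, written 5′ to 3′ on the strand of the gene, capitals mark the matched bases.
NFKB1, chr4:102501300-102501329, + strand: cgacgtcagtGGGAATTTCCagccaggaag
REL, chr2:60881517-60881546, + strand: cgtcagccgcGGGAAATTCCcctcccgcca
NFKB2, chr10:102394461-102394490, + strand: gaaacgtcatGGGAATTCCCccctccgggg
NFKB2, chr10:102395674-102395703, + strand: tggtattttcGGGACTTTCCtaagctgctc
NFKBIA, chr14:35404811-35404840, - strand: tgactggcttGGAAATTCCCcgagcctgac
TNFAIP3, chr6:137867182-137867211, + strand: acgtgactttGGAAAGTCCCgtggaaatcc
TNFAIP3, chr6:137867194-137867223, + strand: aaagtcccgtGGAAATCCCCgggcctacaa
The match began at -49 from the start in NFKB1, at -47 in REL and at -81 in NFKBIA. TNFAIP3 held a pair of matches, at -67 and -55. NFKB2 had matches in 2 of its 3 windows, and the stretches shown are the first of the second window, at -107, and the last of the third, at -21. No match was found in the windows of RELA, CHUK and IKBKG. Matches that overlap each other by all but 1 base occur in NFKB2 and REL, where the sequence is close to a palindrome, and only 1 of each such pair is shown. A match describes letters only and does not show that a factor was bound in these cells.

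The libraries held 312852 to 1153668 UMIs (median 603822, n = 31), and the 10 genes together gave 137 to 547 UMIs per sample, or 0.0408% to 0.0516% of all UMIs. The cell type label was checked with markers. All 12 B precursor markers were detected, with a summed level of 5150 to 5970 CPM (UMIs scaled to an equal total per sample) led by IGLL1, DNTT and MME. T cell markers summed to 2.07 to 22.8 CPM (3 of 6 with UMIs), myeloid markers to 0 to 25.6 CPM (5 of 7), erythroid markers to 0 to 5.29 CPM (3 of 5) and stromal and endothelial markers to 0 to 6.91 CPM (3 of 6). XIAP itself had only 2 to 14 UMIs per sample. At days 10 and 13 it stood at 8.86 ± 3.06 CPM (SD, n = 6) with strong KD and 10.2 ± 4.72 CPM (n = 4) with SFFV/sh-CTRL, and at 9.62 ± 1.45 CPM (n = 5) with moderate KD and 10.8 ± 4.67 CPM (n = 6) with EF1a/sh-CTRL. The log2 fold changes of XIAP were −0.263 (95% interval −1.06 to 0.534; 39 UMIs against 19) with strong KD and −0.169 (−0.909 to 0.571; 26 against 40) with moderate KD (limma-voom adjusted p = 0.975 and 0.994). Both intervals include 0, so these counts did not show lower XIAP mRNA. Strong and moderate KD are the names of the constructs, and each direction given below compares libraries so labelled. Totals differed between the groups compared below: at days 10 and 13 the SFFV/sh-CTRL samples had 351081 to 520334 UMIs and the strong KD samples 312852 to 1148669.

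All 10 genes were expressed. A UMI stands for 1 captured 3′ end, so levels were not divided by transcript length. The feedback gene TNFAIP3, which encodes the ubiquitin-editing enzyme A20, led at 144 ± 21.2 CPM (SD, n = 31), and lay above RELA in 31 of 31 samples. RELA, the main transactivating subunit, followed at 98.2 ± 13.2 CPM. NFKBIA stood at 51.6 ± 12.1 CPM, NFKB1 at 42.6 ± 9.58 CPM and IKBKB at 42.4 ± 10 CPM. NFKBIA was above NFKB1 in 20 samples with 2 ties, and NFKB1 was above IKBKB in 16 samples with 1 tie, so these neighbours did not differ beyond the spread over samples. CHUK (33.2 ± 8.08 CPM) and NFKB2 (32.6 ± 7.59 CPM) were likewise close, with CHUK above in 13 samples and 2 ties. Then came a step. NFKB2 was at 18.1 CPM or more in every sample, and RELB, the partner of the NFKB2 product, was at 18 CPM or less. This was the only pair of neighbours whose ranges did not overlap. RELB stood at 9.69 ± 3.61 CPM, IKBKG at 7.76 ± 4.84 CPM with 2 samples at 0, and REL, the subunit tied to mature lymphocytes, at 5.67 ± 4.01 CPM with 3 samples at 0. A count of 0 allows up to 3 UMIs in that library. TNFAIP3 was at the 93rd percentile of the genes tested and REL at the 32.9th.

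**Figure D1:**
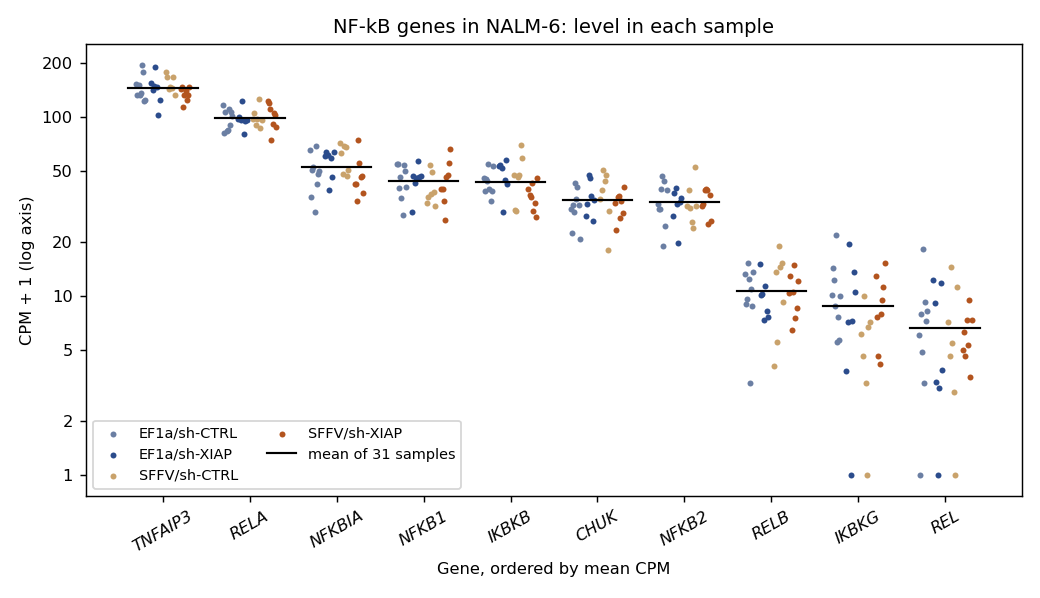
Level of each NF-kB gene in each of the 31 samples, as CPM + 1 on a log axis, ordered by mean CPM; points are samples coloured by construct and black lines are means over the 31 samples. TNFAIP3 and RELA lead, and the ranges separate between NFKB2 (18.1 CPM or more) and RELB (18 CPM or less).

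The family shares were taken over all samples. Of 3909 subunit UMIs, RELA took 52.1% (95% Wilson interval 50.5 to 53.6), NFKB1 22.7%, NFKB2 17.0%, RELB 5.04% and REL 3.12%. By construct the share of RELA ran only from 51.2% with EF1a/sh-CTRL to 53.4% with SFFV/sh-CTRL. RELA and NFKB1, of the classical pathway, were thus the most counted. NFKB2 and RELB, of the alternative pathway, were counted less, and REL the least. Of 1689 IKK UMIs, IKBKB took 50.6% (48.2 to 53.0), CHUK 39.7% and IKBKG 9.71%. IKBKB ran from 46.6% with SFFV/sh-XIAP to 53.6% with EF1a/sh-XIAP, and IKBKG from 5.51% with SFFV/sh-CTRL to 11.6% with SFFV/sh-XIAP. Of 4002 UMIs of the feedback pair, TNFAIP3 took 73.3% (71.9 to 74.6) and NFKBIA 26.7%. These intervals cover counting error only.

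The variance of a gene over the 31 samples was set against that of counting alone, where 1 means no excess. The median gene tested was at 1.05 (quartiles 0.873 and 1.27). NFKB2 (0.946), RELA (0.984), CHUK (1.07) and NFKB1 (1.25) lay between the quartiles, and RELB (0.864) just below the lower quartile. TNFAIP3 (1.76), NFKBIA (1.63), IKBKG (1.52), REL (1.49) and IKBKB (1.42) were above the upper quartile. This ratio grows with the number of UMIs, so it does not rank genes counted to different depths.

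The first comparison asked whether strong XIAP KD moved NF-kB genes at days 10 and 13. With limma-voom over 17683 genes at an adjusted p of at most 0.25, 0 of the 10 passed, beside 0.0792% of all genes (14 genes). The edgeR quasi-likelihood test called 1 of the 10, IKBKB, beside 0.277% of all genes. In each of the other comparisons below the edgeR test called 0 of the 10, and DESeq2 called 0 of the 10 in all of them, this one included. DESeq2 called 0 of all genes in each comparison of constructs at days 10 and 13 and with strong KD at day 4. The edgeR test called 0 of all genes with moderate KD and between promoters at day 4, and for the change of the strong KD effect after day 4. A count of 0 of the 10 says nothing about these genes there. At an unadjusted p under 0.05 limma-voom had 1 of the 10, again IKBKB, beside 5.59% of all genes. The fitted differences were above 0 for 4 genes and below 0 for 6, with a median log2 fold change of −0.13 against −0.0181 over all genes tested. In bulk samples, fewer cells that express a gene and less of its RNA per cell cannot be told apart.

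IKBKB, the catalytic kinase of the classical pathway, was the gene that stood out. It lies on chromosome 8 (GRCh38, 42271302 to 42332653, + strand, ENSG00000104365). The strong KD samples read 34.6, 41.6 and 28.7 CPM at day 10 and 32.0, 26.7 and 44.4 CPM at day 13. The SFFV/sh-CTRL samples read 45.0 and 46.1 CPM at day 10 and 68.4 and 57.8 CPM at day 13. All 6 strong KD samples thus lay below all 4 controls, whereas the day 13 controls were the highest of all 31 samples. Ranges that did not overlap were found for 1 of the 10 genes, beside 1.23% of all genes tested in this comparison. The means were 34.7 ± 7.05 CPM (SD, n = 6) and 54.3 ± 11 CPM (n = 4).

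The limma-voom log2 fold change of IKBKB was −0.731 ± 0.198 (SE), a 0.603-fold level (95% interval of the log2 value −1.13 to −0.332), with an adjusted p of 0.324. The edgeR quasi-likelihood adjusted p was 0.177, and over the alternatives the adjusted p ran from 0.175 to 1. The exact two-sided permutation test over samples gave p = 0.00952, the smallest of 30 such tests on these genes. Summed over samples, 148 UMIs with strong KD and 96 with SFFV/sh-CTRL gave a ratio of 0.618 per total UMIs (95% interval 0.475 to 0.807). The ratio was 0.709 (0.476 to 1.06) at day 10 and 0.538 (0.376 to 0.776) at day 13.

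IKBKB was also read under other fits. EF1a/sh-CTRL stood at 42.9 ± 8.29 CPM (n = 6, range 33.1 to 53.4), between the SFFV groups. The SFFV/sh-CTRL samples had fewer UMIs on the median (464457 against 708866.5). Fits that took the totals into account gave smaller differences than the −0.731 above, and the part of depth was not itself tested. With log2 total UMIs as a covariate the limma-voom log2 fold change was −0.553 (adjusted p = 0.843). After thinning to the smallest total it was −0.547 (adjusted p = 0.924). Without the SFFV/sh-CTRL day 13 replicate 1 it was −0.6 (adjusted p = 0.849), and the gene passed the threshold without SFFV/sh-XIAP day 10 replicate 2 (adjusted p = 0.247) or without SFFV/sh-XIAP day 13 replicate 3 (adjusted p = 0.175).

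**Figure D2:**
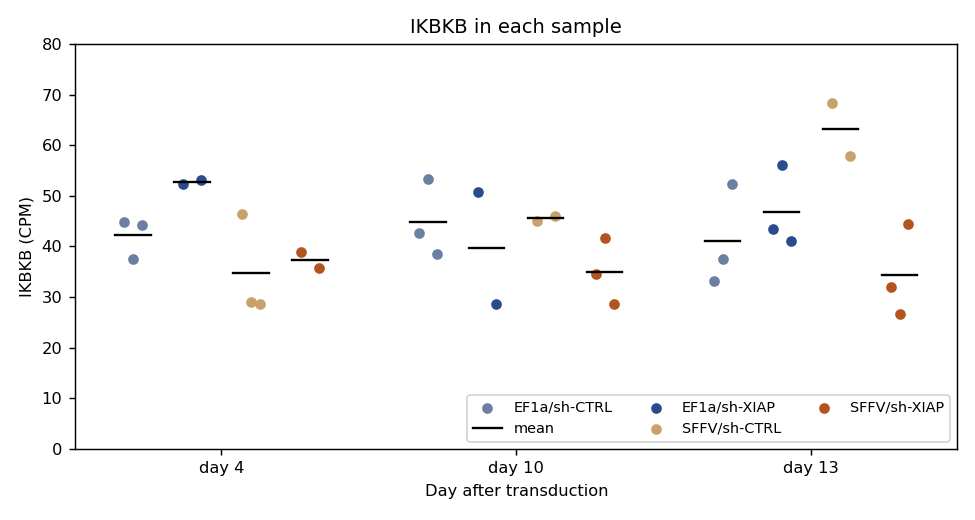
IKBKB level in each sample (CPM) by day after transduction and construct; points are samples and black lines are group means. At days 10 and 13 the SFFV/sh-XIAP samples (26.7 to 44.4 CPM) lie below the SFFV/sh-CTRL samples (45.0 to 68.4 CPM), and at day 4 they do not.

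The other IKK genes did not follow IKBKB. CHUK, the kinase of the alternative pathway, differed by −0.158 ± 0.229 (log2 fold change, SE; adjusted p = 0.973, limma-voom). Its SFFV/sh-CTRL samples read 42.8 and 46.1 CPM at day 10 but 17.1 and 28.9 CPM at day 13, so that strong KD (34.6, 35.2 and 26.1, then 32.9, 28.0 and 39.6 CPM) was below control at day 10 and overlapped it at day 13. IKBKG, the scaffold, ran the other way from IKBKB, with a log2 fold change of 1.16 ± 0.581 (SE; limma-voom adjusted p = 0.895). It was counted thinly. The strong KD samples had 37 UMIs in all (3.65, 3.20 and 6.96 CPM at day 10; 8.46, 10.2 and 14.3 CPM at day 13), and the SFFV/sh-CTRL samples 6 UMIs in all (2.25 and 0 CPM, then 5.70 and 6.19 CPM). The ratio of the sums was 2.47 (95% interval 1.03 to 7.16). The EF1a constructs stood at 8.94 ± 6.15 CPM (n = 6) with sh-CTRL and 9.37 ± 6.91 CPM (n = 5) with sh-XIAP. SFFV/sh-CTRL had the lowest mean, 3.53 ± 2.94 CPM (n = 4), and its day 10 samples held 1 IKBKG UMI in all. The part of these low counts in the difference was not tested. After thinning to the smallest total the IKBKG difference was 0.0993, and without SFFV/sh-CTRL day 10 replicate 2 it was 0.637.

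IKBKG shares sequence with a pseudogene, IKBKGP1, which had 67 UMIs beside 164 of IKBKG. How shared reads were assigned is not given in the sources used here. With both added, the log2 fold change was 1.34 (limma-voom adjusted p = 0.806).

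Day by day, 5 of the 10 genes had strong KD and SFFV/sh-CTRL ranges that did not overlap at day 10, beside 19% of all genes, and 3 of the 10 at day 13, beside 23.2%. With 3 samples against 2 such separation is common. A separation in the same direction at both days was found for 2 of the 10, IKBKB (below control) and IKBKG (above), beside 2.28% of all genes. The nearest IKBKB samples at day 10 were 41.6 CPM with strong KD, on 13 UMIs, and 45.0 CPM with SFFV/sh-CTRL, on 20. For IKBKG the day 10 reading rests on 2, 1 and 8 UMIs against 1 and 0. Of these only the 8 is above the 3 UMIs that a count of 0 allows, so no separation is read from IKBKG. The shares over all genes apply no such limit. NFKB2 was above control at day 10 only (38.3, 38.4 and 38.3 against 24.8 and 23.1 CPM), and NFKB1 at day 13 only (46.1, 54.6 and 65.0 against 37.0 and 30.9 CPM).

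The feedback genes read lower with strong KD, within the spread over samples. NFKBIA read 32.8, 73.5 and 54.0 CPM at day 10 and 45.1, 45.7 and 36.5 CPM at day 13 with strong KD, against 67.5 and 67.3 CPM, then 45.6 and 49.5 CPM, with SFFV/sh-CTRL. The groups overlapped (log2 fold change −0.353 ± 0.197, SE; limma-voom adjusted p = 0.917). TNFAIP3 read 113 to 146 CPM (median 131, n = 6) with strong KD and 132 to 165 CPM (n = 4) with SFFV/sh-CTRL. Of the 6 strong KD samples 4 lay below all controls, and the log2 fold change was −0.163 ± 0.129 (SE; limma-voom adjusted p = 0.94; exact permutation p = 0.0714, two-sided). This was the gene with the most UMIs, and its 95% interval, −0.425 to 0.0976, was the narrowest of the 10.

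The subunits showed no difference past the threshold. The RELA log2 fold change was −0.103 (95% interval −0.37 to 0.163), from 94.4 ± 13.3 CPM (SD, n = 6) with strong KD and 101 ± 17 CPM (n = 4) with SFFV/sh-CTRL. NFKB1 differed by 0.25 (−0.171 to 0.672) and NFKB2 by 0.0969 (−0.417 to 0.61). The low subunits were measured less well. RELB differed by −0.55 (−1.29 to 0.19), with 42 UMIs against 24, and REL by 0.425 (−0.725 to 1.57), with 24 against 8. Their limma-voom adjusted p-values ran from 0.935 to 0.988. The interval of RELB still includes a halving of the level and that of REL a doubling. The 5 genes with a kB match near the start did not share a direction, since NFKBIA and TNFAIP3 were below 0 and NFKB1, NFKB2 and REL above it. Nor did the genes searched without a match, where RELA and CHUK were below 0 and IKBKG above it. RELB and IKBKB were not searched.

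**Figure D3:**
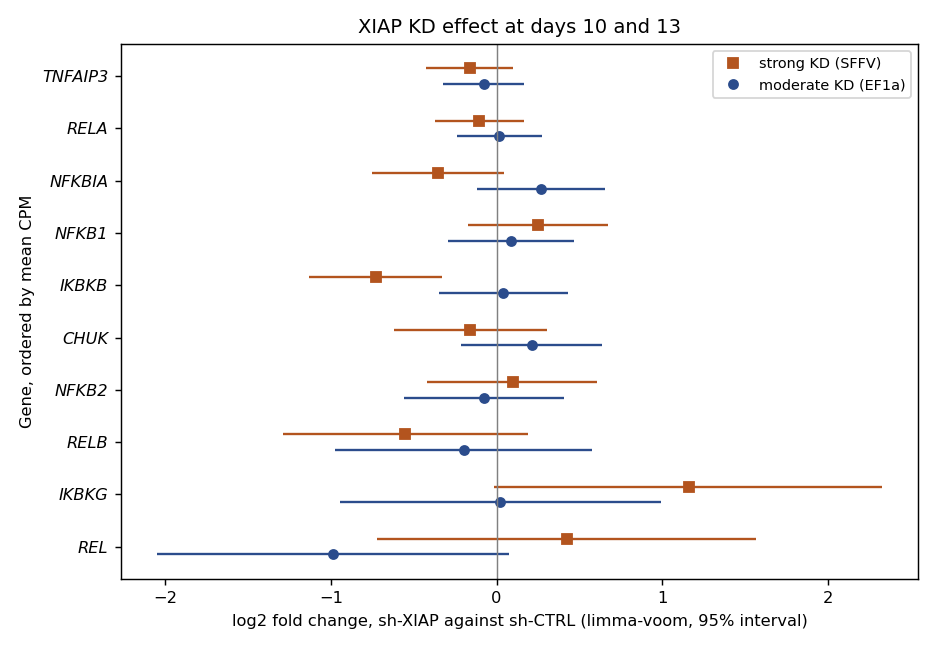
Log2 fold change of each gene with strong KD (squares, SFFV/sh-XIAP against SFFV/sh-CTRL) and moderate KD (circles, EF1a/sh-XIAP against EF1a/sh-CTRL) at days 10 and 13, from limma-voom with 95% intervals. Of the 20 intervals only that of IKBKB with strong KD (−1.13 to −0.332) lies wholly on 1 side of 0.

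Moderate KD gave no difference that passed. With limma-voom 0 of the 10 genes were called, beside 0.017% of all genes, and 0 of the 10 had an unadjusted p under 0.05, beside 4.63% of all genes. The median log2 fold change was 0.0208 (0.00861 over all genes), and adjusted p-values ran from 0.992 to 0.998. None of the 10 had ranges that did not overlap, beside 0.424% of all genes. IKBKB read 50.7 and 28.6 CPM at day 10 and 43.5, 56.1 and 41.0 CPM at day 13 with EF1a/sh-XIAP, inside and around the 33.1 to 53.4 CPM of EF1a/sh-CTRL, and its log2 fold change was 0.0415 ± 0.192 (SE). NFKBIA differed by 0.269 ± 0.192. The largest difference in size was that of REL, −0.986 ± 0.525 (limma-voom adjusted p = 0.992), with 11 UMIs against 26.

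Whether the KD effects differed was tested directly, as the strong minus the moderate effect. By limma-voom 0 of the 10 passed, beside 0.00566% of all genes. IKBKB (−0.772 ± 0.276, log2, SE) and NFKBIA (−0.622 ± 0.276) had an unadjusted p under 0.05, beside 5.06% of all genes, each with a limma-voom adjusted p of 0.964. NFKBIA was lower with strong KD and higher with moderate KD, neither past the threshold. A difference between strong and moderate KD in these genes was therefore not shown.

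The promoters were compared in cells with the control shRNA. SFFV/sh-CTRL against EF1a/sh-CTRL at days 10 and 13 called 0 of the 10 genes with limma-voom, beside 0.00566% of all genes, and 0 of the 10 had an unadjusted p under 0.05, beside 5.15% of all genes. IKBKB was higher under SFFV by 0.347 ± 0.196 (log2, SE; adjusted p = 0.923) and NFKBIA by 0.343 ± 0.202 (adjusted p = 0.923). The IKBKG value was −1.1 ± 0.585 (adjusted p = 0.923). These comparisons use the same SFFV/sh-CTRL samples as the strong KD comparison. For IKBKB the ratio of summed UMIs at day 13 was 1.53 (95% interval 1.05 to 2.21), and at day 10 it was 1.02 (0.687 to 1.49).

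At day 4 the picture for IKBKB was another. The strong KD samples read 38.8 and 35.7 CPM and the SFFV/sh-CTRL samples 46.4, 29.1 and 28.7 CPM, so the groups overlapped (log2 fold change 0.0559 ± 0.261, SE; limma-voom adjusted p = 0.996). With limma-voom over 18336 genes 0 of the 10 passed with strong KD, beside 0.0109% of all genes, and RELA and NFKBIA had an unadjusted p under 0.05, beside 4.73% of all genes. RELA read 122 and 119 CPM with strong KD and 95.8, 104 and 89.1 CPM with SFFV/sh-CTRL (log2 fold change 0.326 ± 0.153, limma-voom adjusted p = 0.979). NFKBIA read 41.4 and 41.0 CPM against 70.1, 61.8 and 46.8 CPM (−0.539 ± 0.238, limma-voom adjusted p = 0.979). With 2 samples against 3, no separation of ranges is read from these values. RELB, at 9.35 and 11.9 CPM against 3.09, 12.7 and 4.53 CPM, differed by 0.959 ± 0.533.

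With moderate KD at day 4 limma-voom called 0 of the 10, beside 0.0491% of all genes. An unadjusted p under 0.05 was found for 1 of the 10, IKBKG, beside 4.5% of all genes. IKBKG was lower, at 2.83 and 6.12 CPM against 9.15, 13.4 and 11.3 CPM with EF1a/sh-CTRL, on 8 and 27 UMIs (log2 fold change −1.14 ± 0.561, unadjusted p under 0.05; limma-voom adjusted p = 0.976). IKBKB read 52.3 and 53.1 CPM with EF1a/sh-XIAP and 44.8, 37.5 and 44.2 CPM with EF1a/sh-CTRL. Between the promoters at day 4 limma-voom called 0 of the 10, beside 0.0164% of all genes. IKBKB was then lower under SFFV (−0.27 ± 0.223), against the later direction.

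Whether strong KD acted differently at day 4 and later was tested in a fit of all 31 samples, chosen after the values were seen. By limma-voom 0 of the 10 passed, beside 0.0226% of all genes. IKBKB (−0.784 ± 0.32, log2, SE), RELA (−0.413 ± 0.191) and RELB (−1.48 ± 0.644) had an unadjusted p under 0.05, beside 5.2% of all genes, each with an adjusted p of 0.935. By their fitted values RELA and RELB were above control at day 4 and below it later. NFKBIA was below control both times, and its change was 0.218 (95% interval −0.437 to 0.874).

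**Figure D4:**
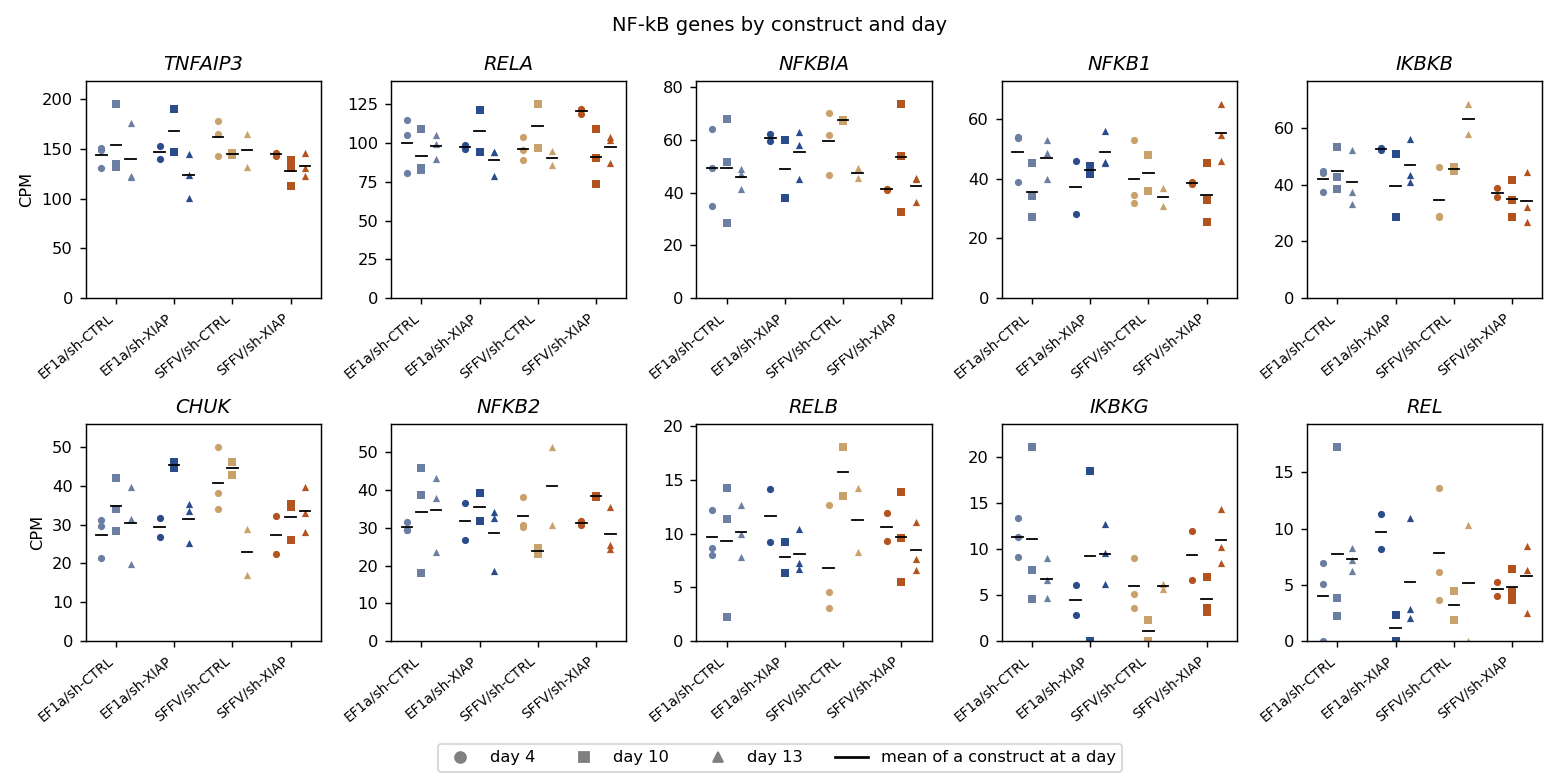
CPM of each NF-kB gene by construct, with symbols for the day and black lines for the mean of a construct at a day; the scale of each panel starts at 0. IKBKB with SFFV/sh-CTRL stands higher at day 13 (68.4 and 57.8 CPM) than at day 4 (46.4, 29.1 and 28.7 CPM), and RELA with SFFV/sh-XIAP stands at 122 and 119 CPM at day 4.

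Time after transduction moved no member past the threshold. By limma-voom over 17676 genes 0 of the 10 passed for day 10 against day 4, beside 0.26% of all genes. For day 13 against day 4 it was 0 of the 10 beside 0.515%, and for day 13 against day 10 it was 0 of the 10 beside 0.0226%. TNFAIP3 read 131 to 178 CPM (median 147, n = 10) at day 4, 113 to 195 CPM (median 142, n = 10) at day 10 and 101 to 176 CPM (median 131, n = 11) at day 13. Of the 11 day 13 samples 6 lay below all day 4 samples. The log2 fold change of TNFAIP3 between these days was −0.161 ± 0.0754 (SE; unadjusted p under 0.05, limma-voom adjusted p = 0.731; permutation p = 0.0595, two-sided, 100000 resamples). NFKB1 was at 38.0 ± 7.99 CPM (SD, n = 10) at day 10 and 47.5 ± 9.56 CPM (n = 11) at day 13, a log2 fold change of 0.303 ± 0.13 (SE, unadjusted p under 0.05; limma-voom adjusted p = 0.768). IKBKG differed between the same days by 0.616 ± 0.305 (unadjusted p under 0.05, limma-voom adjusted p = 0.831), on 39 and 63 UMIs. An unadjusted p under 0.05 was found for 0 of the 10 for day 10 against day 4, beside 6.3% of all genes. For day 13 it was 1 of the 10 against day 4, beside 6.46%, and 2 of the 10 against day 10, beside 5.98%. The rest of the 10 had an unadjusted p over 0.05 in each of these comparisons.

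The wider pathway was read from 3 lists. Of 22 further inhibitors and IkB family genes 21 were tested at days 10 and 13, of 51 upstream signalling genes 43, and of 53 target genes 32. By limma-voom 0 of them passed in any of the 11 comparisons, nor did any pass with the edgeR test or DESeq2. In several of these comparisons the edgeR test or DESeq2 called 0 of all genes. With strong KD at days 10 and 13 an unadjusted p under 0.05 was found for 1 of 21 inhibitors, 2 of 43 upstream genes and 2 of 32 targets, beside 5.59% of all genes. With strong KD at these days 14 of 21 inhibitors were higher (median log2 fold change 0.0313), 19 of 43 upstream genes (−0.0491) and 16 of 32 targets (−0.00253), beside a median of −0.0181 over all genes. With moderate KD 25 of 32 targets were higher, with a median of 0.165 beside 0.00861 over all genes, and 2 of these targets had an unadjusted p under 0.05. NFKBIB, another IkB gene, had the smallest p among the inhibitors with strong KD (log2 fold change 0.657 ± 0.218, SE; limma-voom adjusted p = 0.628). HSP90AB1, a chaperone of the IKK complex, had the smallest among upstream genes (0.162 ± 0.0488; limma-voom adjusted p = 0.499), and B2M among targets (−0.0649 ± 0.0296; adjusted p = 0.853). These 3 are given as the smallest p of each list in this comparison, a choice made after their values were seen. Under other settings some list genes passed. HSP90AB1 and NFKBIB did so with strong KD against both sh-CTRL constructs, and HSP90AB1 without SFFV/sh-XIAP day 10 replicate 2 or without SFFV/sh-XIAP day 13 replicate 3. B2M passed for day 10 against day 4 with the depth covariate, and for day 13 against day 10 without a filter on low counts. Without that filter 2 inhibitors, 6 upstream genes and 7 targets passed for day 10 against day 4, where 8868 genes were called in all.

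The most abundant genes of the lists set the scale. Among inhibitors these were TAX1BP1, an adaptor of A20, at 86.2 ± 14.2 CPM (SD, n = 31), NKIRAS1 at 61.8 ± 9.05 CPM and NKIRAS2 at 45.4 ± 8.25 CPM. Among upstream genes HSP90AA1 stood at 1300 ± 63.5 CPM, HSP90AB1 at 920 ± 59.7 CPM and UBE2D3, a ubiquitin-conjugating enzyme, at 274 ± 22.4 CPM. Of the targets B2M, the light chain of HLA class I, stood at 1810 ± 55.9 CPM, HLA-B at 655 ± 41.7 CPM and MYC at 395 ± 26.7 CPM. TNFAIP3, at 144 CPM, was thus above each of the 21 tested inhibitors of the list.

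No shared variation of the 10 genes was seen over the samples. Over 31 samples the 45 pairs had Pearson correlations of log2 CPM from −0.379 (IKBKG with NFKBIA) to 0.303 (REL with IKBKG), with a median of −0.0458. All pairs share the same libraries and their depth, and counting error lowers the values, most for the thinly counted genes. RELB, NFKB2, RELA and CHUK varied about as much as counting alone gives (ratios of 0.864 to 1.07). Their correlations therefore cannot show whether they vary together. Among all genes tested, the pattern of TNFAIP3 was most like that of ZNF644 (r = 0.664), TPTE2P3 (r = 0.659) and PDLIM7 (r = 0.618). That of RELA was most like SAMM50 (r = 0.691), LONP2 (r = 0.676) and ITPKB (r = 0.673). These are the highest of 17676 genes over 31 samples, and are given as a description. TPTE2P3 (2.74 CPM) and ITPKB (5.34 CPM) were counted thinly, and SAMM50 correlated with log2 total UMIs (r = 0.458). As RELA varied about as much as counting alone gives, its likeness to these genes cannot be told from counting error.

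By position (GENCODE 29, GRCh38) the other genes were NFKB1 on chromosome 4 (102501329 to 102617302, +), NFKB2 on chromosome 10 (102394110 to 102402529, +), RELA on chromosome 11 (65653596 to 65663094, −), RELB on chromosome 19 (45001430 to 45038198, +), REL on chromosome 2 (60881521 to 60931610, +), IKBKG on chromosome X (154541199 to 154565046, +), CHUK on chromosome 10 (100188298 to 100229619, −), NFKBIA on chromosome 14 (35401511 to 35404749, −) and TNFAIP3 on chromosome 6 (137867188 to 137883312, +). Several overlap another gene. The end of CHUK shares 37 bases with ERLIN1 (914 UMIs) on the same strand, so reads there could fall to either. The last 5702 bases of REL carry AC010733.2, a noncoding RNA on the same strand without a row among the counts. Whether reads there were counted for REL is not given, which limits its level. AL357060.1 (497 UMIs) overlaps the start of TNFAIP3 on the opposite strand.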

How the data were processed

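The 31 samples were assigned to construct, day and replicate number from their labels. The authors deposited a table of UMI counts per gene, not normalized, from prime-seq libraries, a bulk form of SCRB-seq, which reads 3′ ends; the submitters' processing notes name STAR 2.6.0a and human and mouse genome builds, and the annotation is not given in the sources used here. Symbols were found for 30548 of 30667 identifiers. The study left out outlier samples without naming them. Some groups lack a replicate number, so those samples may already be absent from the deposited counts, which the sources used here do not say. None of the 31 deposited samples was left out here.

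Genes with over 1 CPM in at least 1/3 of the fitted samples were tested with limma-voom 3.58.1 on TMM-normalized counts (edgeR 4.0.16, R 4.3.3), with Benjamini-Hochberg adjustment over all genes and the study's threshold of 0.25. The 21 samples of days 10 and 13 were fitted with construct and day, the 10 of day 4 with construct, and all 31 for the days. The labels do not name separate cultures, so p-values measure the spread between these samples, which may be technical. Single genes were compared by permutation tests over samples on log2 CPM (prior count 2). Ratios of summed UMIs carry exact 95% intervals, for counting error only. The scripts were tested on simulated data. The edgeR quasi-likelihood test, DESeq2 1.42.0, other filters, normalizations, controls, thinned counts, single days and leaving out each sample were tried. Named genes were the 10 members, the 3 most abundant genes of each list, those past the threshold, and the 3 genes most like the 2 members with the most UMIs; NFKBIB was named after its values were seen. Members and lists were chosen with earlier results of these data known.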

Additional observations from a re-analysis of the deposited data

Results flagged for a closer look

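Each of the 10 genes was examined for single samples far from the rest, in the 4 constructs at days 10 and 13, which made 40 groups of 4 to 6 samples. A sample stood apart, by the gap to its nearest neighbour relative to the range of the group, in 2 of the 40, and chance alone gives about 1 in 20 groups. REL with EF1a/sh-XIAP read 10.9 CPM in day 13 replicate 2, with the nearest of the other 4 samples at 2.86 CPM. IKBKG with EF1a/sh-CTRL read 21 CPM in day 10 replicate 2, with the nearest of the other 5 samples at 9.04 CPM. Those readings rest on 6 UMIs of REL and 11 UMIs of IKBKG.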

How the results depend on the processing

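With strong KD at days 10 and 13 the number of the 10 genes past the threshold was 0, and it was 1, IKBKB in each case, under the edgeR quasi-likelihood test, with filterByExpr, with both sh-CTRL constructs as control (log2 fold change −0.557, limma-voom adjusted p = 0.22) and, as an alternative chosen after seeing the data, without both small sh-XIAP libraries (adjusted p = 0.211). Leaving out 1 sample at a time gave 0 to 1. Without a filter on low counts 1 of the 10, RELA, passed for day 10 against day 4, where 8868 genes were called in all. Over all genes, strong KD called 14 in the fit as reported, 0 with DESeq2, 49 with edgeR and 107 with both sh-CTRL constructs as control, and 2 to 45 when 1 sample was left out. Of 32 printed log2 fold changes, 25 kept their sign under every alternative. Day 10 alone gave −0.15 for NFKB1 with strong KD and −0.144 for IKBKB with moderate KD. Day 13 alone gave −0.472 for NFKB2, 0.111 for RELA and 0.445 for CHUK with strong KD, and limma-trend gave 0.0207 for CHUK. With 1 sample left out, strong KD ran from −0.0381 to 0.36 for NFKB2, −0.124 to 0.0513 for RELA, −0.163 to 0.935 for REL and −0.282 to 0.0555 for CHUK; IKBKB ran from −0.0563 to 0.114 with moderate KD and from −0.0665 to 0.344 with strong KD at day 4. The cause of these reversals was not tested. The added counts of IKBKGP1 and day effects averaged over the constructs in a model of 12 groups, both chosen after seeing the data, changed no call, nor did the model of 12 groups in the KD and promoter comparisons.

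Samples with the same replicate number did not deviate together (their residuals correlated at −0.000532 on average in 149 pairs, and at 0.00029 in 290 pairs with different numbers), and 6 of 31 matched their own number best. With the replicate block 0 of the 10 passed in every comparison, and IKBKB with strong KD gave −0.749 (limma-voom adjusted p = 0.435). The depth limits REL and IKBKG most, which had 122 and 164 UMIs over all samples.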
